A study of Homo sapiens with 6 samples.

Results

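The unfolded protein response of the endoplasmic reticulum (ER) was followed through 32 genes, chosen by name from the 58735 genes of the count table. They comprise 5 genes for stress sensors and their transcription factor, 11 for chaperones and co-chaperones, 6 for disulfide isomerases and a reductase, 6 for ER-associated degradation (ERAD) and 4 for protein translocation and export. Polyadenylated RNA was sequenced from OE33, an established line from a human esophageal adenocarcinoma. In 3 libraries the cells had been exposed for 20 min to acidified bile salts (ABS), 200 µM in unsupplemented medium at pH 4.0, and had recovered for 6 h in complete medium. The other 3 libraries came from untreated cells of the same line, and whether these had the medium change was not stated, so acid, bile salts and handling cannot be told apart.

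Proteins that enter the secretory pathway fold in the ER with the help of chaperones and enzymes that form disulfide bonds. When unfolded proteins accumulate, the chaperone BiP, encoded by *HSPA5*, leaves the sensors IRE1 (*ERN1*), PERK (*EIF2AK3*) and ATF6. IRE1 cuts an intron from the *XBP1* mRNA, ATF6 is cleaved to release a transcription factor, and PERK slows translation while ATF4 is made. XBP1 and ATF6 then raise transcription of chaperone and ERAD genes. Hydrophobic bile acids are known to cause ER stress in hepatocytes.

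Libraries held between 22145676 and 25235686 counts. The number of genes past the test was 60 with all 6 libraries, 273 without ABS library 3 and 438 without control library 3, against 12 to 18 without any 1 of the other libraries, and 1813 with both replicate 3 libraries left out, so results are also given for replicates 1 and 2 alone. Epithelial markers (*EPCAM*, *KRT8*, *KRT18*, *KRT19*, *CDH1*) summed to 18098 to 18985 CPM (counts scaled to library size by TMM) in ABS libraries and 17272 to 20152 CPM in control libraries. The 5 immune markers summed to at most 5.32 CPM in ABS libraries and 6.01 CPM in control libraries, with *PTPRC*, *CD3E* and *MS4A1* at 0 counts in all 6. Sums of the 5 fibroblast markers were at most 3.72 CPM in ABS and 3.14 CPM in control libraries, with *COL1A2* and *DCN* at 0 counts, and those of the 4 endothelial markers at most 0.275 CPM in ABS and 0.0455 CPM in control libraries. In bulk RNA, fewer cells of a kind and less RNA per cell cannot be told apart.

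After ABS, the 32 genes lay close to their control levels. By edgeR's quasi-likelihood test with Benjamini-Hochberg adjustment over all genes, 0 of 32 passed the threshold of 0.05, where 0.436% of 13768 tested genes did. At an unadjusted p under 0.05 there was 1 member, *SEC24D*, where 9.75% of tested genes were. DESeq2 called 1, *SEC24D* again, against 2.08% of genes in that test, limma-voom 0, against 0.450%, and edgeR with a term for the replicate 3 libraries 1, *SEC24D*, against 3.38%. The log2 fold change of ABS over control was positive in 23 members and negative in 9, against 49.0% positive among all tested genes. Its median was 0.03, that of all tested genes was -0.0037, and it lay within 0.2 of 0 in 30 of 32 members and in 70.3% of all tested genes. Members held at least 215 counts in every library, while the filter had a minimum count of 10, and genes with few counts scatter more. These shares were not matched for level.

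The intervals were narrow. For all 32 members the 95% interval of the change lay inside 1.5-fold in either direction. The largest upper bound was 1.46-fold, for *TXNDC5*, and the smallest lower bound 0.706-fold, for *HERPUD1*. Together the 32 genes took 0.708%, 0.718% and 0.677% of the counts in ABS libraries 1, 2 and 3, against 0.690%, 0.680% and 0.673% in control libraries 1, 2 and 3. Scaled sums were 7211, 7345 and 6588 CPM in ABS libraries and 6947, 6853 and 6575 CPM in control libraries. ABS libraries 1 and 2 lay above every control library in this sum, and ABS library 3 lay among the control libraries.

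**Figure D1:**
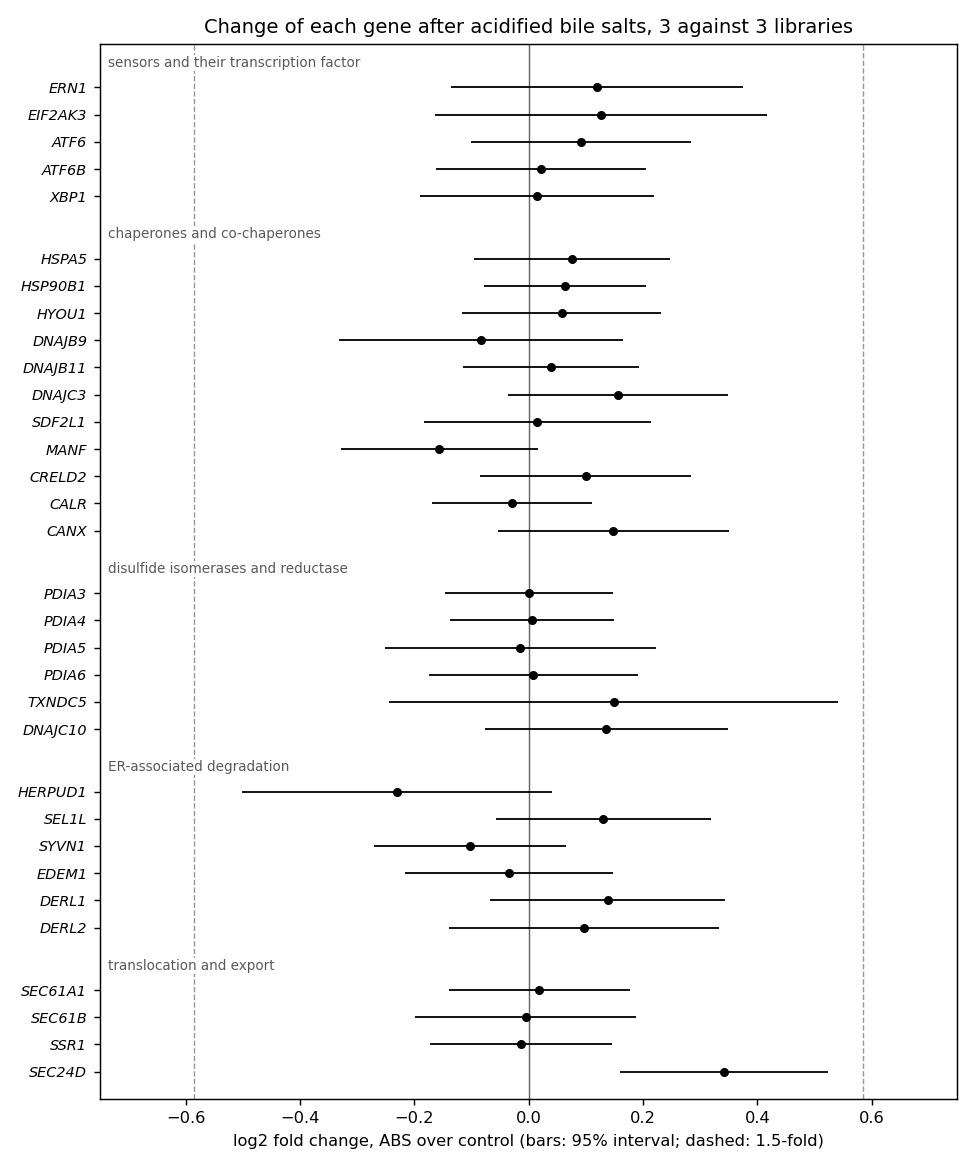
Log2 fold change of each of the 32 genes, ABS over control, by role, with the 95% interval of the edgeR fit (3 libraries per group). Every interval lies between the dashed lines at 1.5-fold, and only that of *SEC24D* leaves out 0.

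All 32 genes were expressed. Per kilobase of gene model, control levels ran from 1.86 ± 0.195 CPM for *ERN1* to 255 ± 9.65 CPM for *CALR* (mean ± SD, n = 3), a range of 137-fold. Luminal and membrane chaperones stood at the top. *CALR* (calreticulin, a lectin chaperone) had 250 ± 1.67 CPM per kilobase after ABS, against the control value above. *HSPA5* had 217 ± 17.5 after ABS and 206 ± 13.0 in control cells, and *HSP90B1*, the ER member of the HSP90 family, 184 ± 8.12 and 176 ± 1.55. At the other end, the sensor kinases *ERN1* and *EIF2AK3* had 2.01 ± 0.175 and 2.06 ± 0.0621 CPM per kilobase after ABS, against 1.86 ± 0.195 and 1.89 ± 0.178 in control cells, and did not differ from each other beyond their spread. The median coefficient of variation between replicates was 7.17% in ABS and 4.49% in control libraries for the members, and 10.1% and 9.73% for all tested genes. All tested genes include genes of far fewer counts, which vary more, and this comparison was not matched for level.

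**Figure D2:**
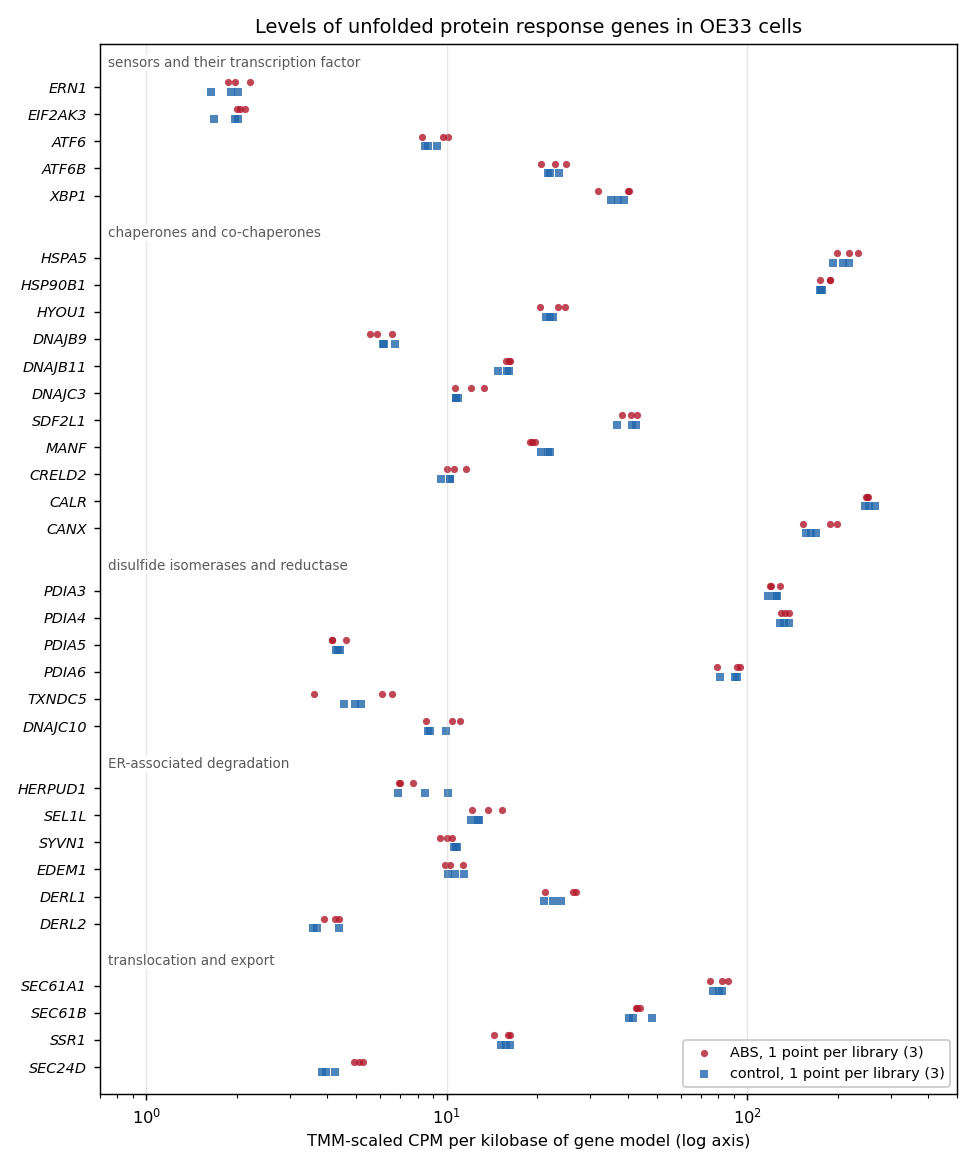
Levels in each library as TMM-scaled CPM per kilobase of gene model on a log axis, ABS (red circles) above control (blue squares). The chaperones *CALR* and *HSPA5* lie highest and the kinases *ERN1* and *EIF2AK3* lowest, and the groups overlap for every gene except *SEC24D*, *MANF* and *SYVN1*.

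Of the sensor group, 0 of 5 members passed the test, and all 5 log2 fold changes were positive with a median of 0.09. *ERN1* (ENSG00000178607), which encodes IRE1, a kinase and endoribonuclease, had 24.0, 20.2 and 21.5 CPM in ABS libraries 1, 2 and 3, against 21.8, 20.8 and 17.8 CPM in control libraries 1, 2 and 3. The groups overlapped, and the log2 fold change was 0.12 ± 0.12 (SE, edgeR adjusted p 0.816). *EIF2AK3* (ENSG00000172071), which encodes PERK, the kinase that phosphorylates eIF2alpha, had 11.1, 11.5 and 10.9 CPM after ABS and 9.14, 10.9 and 10.7 CPM in control libraries. Its lowest ABS value lay below its highest control value, at a log2 fold change of 0.13 ± 0.13. *ATF6*, which encodes a transcription factor held in the ER membrane, had 76.6, 79.7 and 65.4 CPM after ABS and 68.2, 66.8 and 73.0 CPM in control libraries. ABS libraries 1 and 2 were the highest of the 6 and ABS library 3 the lowest. *ATF6B*, its paralog, had a log2 fold change of 0.02 ± 0.08.

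*XBP1* (ENSG00000100219, chromosome 22, 28794555 to 28800597, GRCh38) encodes the transcription factor downstream of IRE1. It had 121, 122 and 96.7 CPM in ABS libraries, against 118, 112 and 107 CPM in control libraries. The groups overlapped, with ABS library 3 the lowest of the 6, and the log2 fold change was 0.01 ± 0.09 (95% interval 0.876-fold to 1.16-fold). This level sums both forms of the mRNA. The intron that IRE1 removes has 26 bases, or 0.859% of the 3028 bases of the gene model, and counts per gene do not separate the forms. It is shown as 1 of the GENCODE 29 transcripts annotates it, at chr22:28796124-28796149 on the minus strand and within the coding sequence, with the removed bases in capitals and 15 bases on each side.
XBP1 intron: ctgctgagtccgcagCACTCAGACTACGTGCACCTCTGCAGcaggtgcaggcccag

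Of 11 chaperone and co-chaperone genes, 0 passed, 8 had positive and 3 negative log2 fold changes, and the median was 0.06. *HSPA5* (ENSG00000044574, chromosome 9, 125234853 to 125241330) had 854, 913 and 777 CPM in ABS libraries, against 851, 814 and 750 CPM in control libraries. The groups overlapped, and the log2 fold change was 0.08 ± 0.08 with an edgeR adjusted p of 0.83 (95% interval 0.935-fold to 1.19-fold). *DNAJB9*, a BiP co-chaperone that also restrains IRE1, had 15.7, 16.6 and 18.6 CPM after ABS and 17.5, 17.4 and 19.0 CPM in control libraries, with overlap. *DNAJC3*, a co-chaperone known as an inhibitor of PERK, had 67.4, 74.4 and 59.7 CPM after ABS and 60.8, 60.1 and 59.8 CPM in control libraries. Here ABS libraries 1 and 2 lay above all control libraries and ABS library 3 just below them.

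*CANX* encodes calnexin, the membrane-bound lectin chaperone. It had 1178, 1242 and 952 CPM after ABS and 1058, 1013 and 973 CPM in control libraries, with the same order of ABS libraries as *DNAJC3*. *MANF*, a secreted ER-resident factor that binds BiP, had 46.9, 45.1 and 45.6 CPM after ABS and 52.6, 51.8 and 49.1 CPM in control libraries. All ABS values lay below all control values, and the log2 fold change was -0.16 ± 0.08 (adjusted p 0.564). *CRELD2*, an ER protein induced by stress, had 54.7, 51.5 and 60.0 CPM after ABS and 52.8, 52.9 and 49.5 CPM in control libraries, with overlap. The other 5 chaperone genes, *HSP90B1*, *HYOU1* (a nucleotide exchange factor for BiP), *DNAJB11*, *SDF2L1* and *CALR*, had log2 fold changes between -0.03 and 0.06.

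Of the 6 genes for disulfide isomerases and a reductase, 0 passed, and the median log2 fold change was 0.0072. *PDIA3* (the isomerase that works with calnexin and calreticulin), *PDIA4*, *PDIA5* and *PDIA6* lay between -0.01 and 0.0084, with adjusted p of 0.983 to 0.998. For *PDIA3* the interval ran from 0.904-fold to 1.11-fold, and for *PDIA4* from 0.909-fold to 1.11-fold. *DNAJC10*, an ER reductase that prepares proteins for degradation, had 227, 242 and 186 CPM after ABS and 216, 191 and 188 CPM in control libraries, with overlap. *TXNDC5* had 26.6, 28.9 and 15.9 CPM after ABS and 19.9, 22.8 and 21.6 CPM in control libraries. ABS library 3 was its lowest and ABS library 2 its highest, and its interval was the widest of the 32. Reads of *TXNDC5* can be shared with the read-through gene *BLOC1S5-TXNDC5*, which covers 60.6% of its exon bases, and the pseudogene *PDIA3P1* held 3.76% as many counts as *PDIA3*. Genes on the other strand cover 25.2% of the exon bases of *PDIA6* and 18.9% of those of *PDIA3*, and the strand setting of the counting is not known. Genes on the same strand cover 14.3% of the exon bases of *PDIA5*.

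In ERAD, which returns misfolded proteins to the cytosol for the proteasome, 0 of 6 genes passed, with 3 positive and 3 negative log2 fold changes. *HERPUD1* (ENSG00000051108, chromosome 16, 56932048 to 56944863), a scaffold of the ubiquitin ligase complex, had 35.7, 39.7 and 36.0 CPM after ABS and 43.5, 51.8 and 35.4 CPM in control libraries. ABS values lay below control libraries 1 and 2 and above control library 3. Its log2 fold change, the lowest of the 32, was -0.23 ± 0.12, with an adjusted p of 0.594. *SEL1L*, the adaptor of the same complex, had 131, 146 and 116 CPM after ABS and 122, 115 and 122 CPM in control libraries. *SYVN1*, which encodes its ubiquitin ligase HRD1, had 55.1, 51.9 and 57.3 CPM after ABS and 58.1, 59.3 and 59.1 CPM in control libraries. For *SYVN1* all ABS values lay below all control values, at a log2 fold change of -0.10 ± 0.08, while the values of *SEL1L* overlapped. Exons of *FAU*, *MRPL49* and *MIR6751* cover 10.1% of the exon bases of *SYVN1*, with 8.39% covered on the same strand, so reads can be shared.

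*DERL1*, a membrane component of the retrotranslocation channel, had 185, 190 and 150 CPM after ABS and 160, 169 and 149 CPM in control libraries. ABS libraries 1 and 2 were the highest of the 6. *EDEM1*, which helps mark glycoproteins for degradation, had a log2 fold change of -0.04 ± 0.08, and *DERL2* one of 0.10 ± 0.11.

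Among the translocation and export genes, 0 of 4 passed. *SEC61A1* and *SEC61B*, subunits of the channel through which new chains enter the ER, had log2 fold changes of 0.02 ± 0.07 and -0.0055 ± 0.09, and *SSR1*, a subunit of the translocon-associated complex, one of -0.01 ± 0.07. *SEC24D* (ENSG00000150961, chromosome 4, 118722823 to 118838683), a cargo adaptor of the COPII coat that carries proteins out of the ER, had the largest change of the 32. It had 48.7, 50.4 and 52.0 CPM in ABS libraries, against 38.0, 42.0 and 39.1 CPM in control libraries. All ABS values lay above all control values. The fitted fold change between the groups was 1.27 (95% interval 1.12-fold to 1.44-fold), with an unadjusted p of 0.00145 and an edgeR adjusted p of 0.110. Its adjusted p was 0.0339 with DESeq2, and it passed in 4 of the 14 alternatives, over which the adjusted p lay between 0.0203 and 0.464. Over the 32 genes, ABS values lay wholly above control values in 1 (*SEC24D*) and wholly below in 2 (*MANF* and *SYVN1*), where 7.57% and 6.95% of all tested genes did so.

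The replicate 3 library of each group lay lower than replicates 1 and 2 in many members, by a median of -0.07 on the log2 scale both in ABS and in control libraries, where the medians of all tested genes were 0.0091 and 0.0062. ABS library 3 had the lowest value of the 3 ABS libraries in 17 of 32 members, where it did so in 38.0% of all tested genes, and the lowest of all 6 libraries in 12 members and 17.8% of tested genes. Control library 3 was the lowest control library in 18 members and in 37.2% of tested genes. The median log2 difference of ABS over control was 0.06 between replicate 1 libraries, 0.04 between replicate 2 libraries and -0.01 between replicate 3 libraries. It was positive for 22, 20 and 14 of the 32 genes. The labels do not pair libraries across groups, so the shared number only names them.

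**Figure D3:**
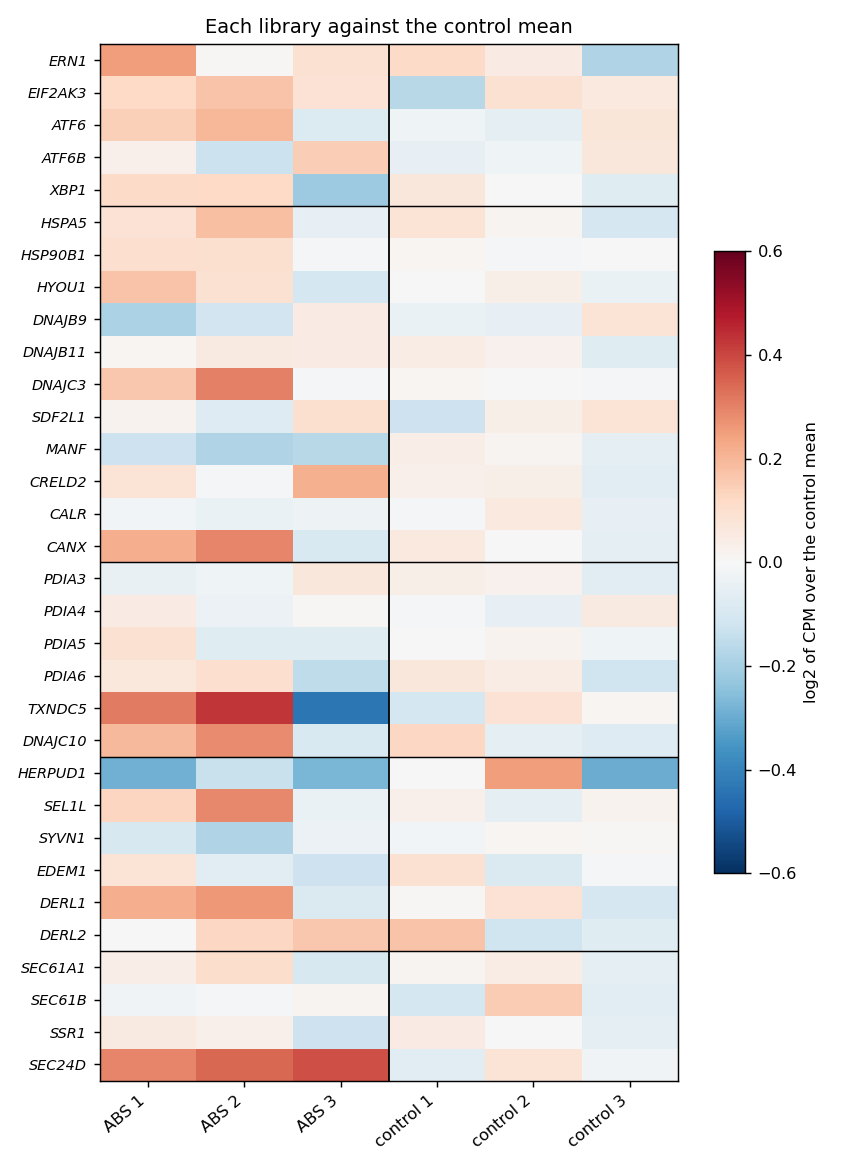
Log2 of the CPM in each library over the mean of the 3 control libraries, genes by role. *CANX*, *DNAJC3*, *DNAJC10*, *SEL1L*, *DERL1* and *TXNDC5* are red in ABS 1 and ABS 2 but not in ABS 3, while *SEC24D* is red in all 3 ABS libraries. The pattern is not particular to those 6 genes. *ATF6*, *HSPA5*, *HSP90B1*, *HYOU1*, *XBP1*, *PDIA6*, *SEC61A1* and *SSR1* also lie above the control mean in ABS 1 and ABS 2 and below it in ABS 3.

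With replicates 1 and 2 alone, edgeR called 8 of the 32 genes higher, where 7.83% of the genes tested in that fit were higher, and 1 lower, where 5.33% were lower. As above, these shares were not matched for level, and the members hold more counts than many tested genes. Leaving out libraries because they stand apart lowers the spread by construction. The genes called higher were *TXNDC5* (log2 fold change 0.38), *SEC24D* (0.31), *DNAJC3* (0.23), *CANX* (0.23), *SEL1L* (0.22), *ATF6* (0.21), *DNAJC10* (0.20) and *DERL1* (0.19), at adjusted p of 0.000707 to 0.046. *HERPUD1* was called lower (-0.34, adjusted p 0.0186). The replicate 3 libraries, 1 per group, differed by 0.41 for *SEC24D*, by 0.02 for *HERPUD1* and by 0.01 for *DERL1*. For *DNAJC3*, *DNAJC10*, *CANX*, *SEL1L*, *ATF6* and *TXNDC5* they differed by -0.0019, -0.02, -0.03, -0.07, -0.16 and -0.45. *HSPA5*, *HSP90B1*, *XBP1* and *DNAJB9* were not among the 9 genes called in replicates 1 and 2. Whether the change differed between replicate 3 and the other libraries was not tested.

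The promoters of many of these genes are known to carry elements through which ATF6 and XBP1 act. The ER stress response element (ERSE) is CCAAT and CCACG with 9 free bases between them, and ERSE-II is ATTGG and CCACG with 1 free base. These elements, the core of the unfolded protein response element (UPRE, TGACGTGG) and an ATF4 core (TGATGCAA) were searched on both strands from 250 bases before to 50 after each RefSeq start. Only exact matches of the fixed letters were counted, so a window without a match can still hold a variant of an element. Windows were found for 29 of the 32 genes, and *PDIA3*, *DERL1* and *SEC24D* had no entry. ERSE was found in 7 of 29 members (24.1%) and in 0.0916% of 27305 genes, and ERSE-II in 3 members (10.3%) and in 0.0696% of genes. The 32 genes were chosen for their known roles in the response, so these shares are a description. The 12 ERSE and ERSE-II sites are shown in the direction of the motif, with its fixed letters in capitals, GRCh38.p14.
XBP1, chr22:28800603-28800621: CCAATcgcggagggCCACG
HSPA5, chr9:125241391-125241409: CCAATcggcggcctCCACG
HSP90B1, chr12:103930216-103930234: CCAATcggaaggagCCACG
HSP90B1, chr12:103930321-103930339: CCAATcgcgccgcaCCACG
CRELD2, chr22:49918554-49918572: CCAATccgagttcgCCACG
CALR, chr19:12938384-12938402: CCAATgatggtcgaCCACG
CANX, chr5:179698778-179698796: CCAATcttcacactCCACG
PDIA6, chr2:10812853-10812871: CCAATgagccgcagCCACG
HYOU1, chr11:119057380-119057390: ATTGGaCCACG
HYOU1, chr11:119057274-119057284: ATTGGaCCACG
SDF2L1, chr22:21642114-21642124: ATTGGtCCACG
HERPUD1, chr16:56932025-56932035: ATTGGgCCACG

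The *HSPA5* and *HERPUD1* promoters place such sites in their surroundings, with the fixed letters of each motif in capitals, in the direction of the gene. The *HSPA5* stretch, chr9:125241344-125241593 on the minus strand, runs from -250 to -1 relative to the start, with an exact ERSE match at -66 to -48. The *HERPUD1* stretch, chr16:56931892-56932047 on the plus strand, runs from -250 to -95 and holds the ATF4 core on the other strand, followed by ERSE-II.
HSPA5: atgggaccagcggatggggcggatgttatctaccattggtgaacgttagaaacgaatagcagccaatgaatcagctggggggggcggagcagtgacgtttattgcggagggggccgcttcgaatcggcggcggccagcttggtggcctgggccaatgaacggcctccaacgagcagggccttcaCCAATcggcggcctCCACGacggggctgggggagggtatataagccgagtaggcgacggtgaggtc
HERPUD1: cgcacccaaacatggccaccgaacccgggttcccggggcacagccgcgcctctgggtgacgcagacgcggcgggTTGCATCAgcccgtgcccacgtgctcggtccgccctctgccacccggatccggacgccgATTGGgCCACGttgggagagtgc

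The 10 members with ERSE or ERSE-II had log2 fold changes from -0.23 to 0.15, with a median of 0.04. Positive were 8 of these 10, beside 23 of all 32 members and 49.0% of all tested genes. The 19 members with a window and no exact match to either element had a median of 0.02. UPRE cores were found in *DNAJC10*, *HYOU1* and *TXNDC5* (0.927% of all genes), where that of *HYOU1* overlaps an ERSE-II, and the ATF4 core in *HERPUD1* (1.08% of all genes). Outside the 32 genes, 9 tested genes carried ERSE, among them *SERP1*, *FICD* and *ERO1B*, and 11 carried ERSE-II. Of these, 0 passed the edgeR threshold, with medians of 0.07 and -0.06, while *TRIM5* (0.28) and *CAMTA1* (-0.44) had an unadjusted p under 0.05. A match of letters describes the window only and does not show binding.

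**Figure D4:**
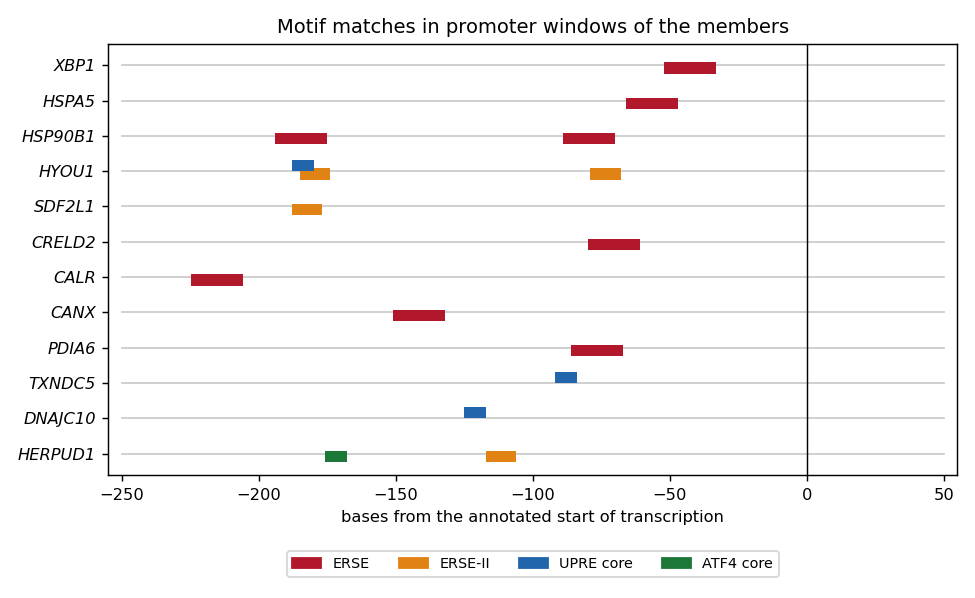
Motif matches in the promoter windows of the 12 members that hold any, in bases from the RefSeq start (for *CANX*, the first of the 3 starts whose windows hold its site). The ERSE sites of *HSPA5*, *XBP1*, *CRELD2* and *PDIA6* lie between -86 and -34.

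Other genes of the same pathway were followed in 8 lists. Passing genes numbered 0 in each of them, out of 12 tested sensors, proteases and regulators, 13 genes of the PERK branch, 23 of folding and oxidation, 20 of ERAD, 21 of translocation and signal cleavage, 14 of N-glycosylation, 17 of the COPII coat and retrieval, and 8 reticulophagy receptors. At an unadjusted p under 0.05 the counts were 1, 5, 0, 0, 0, 1, 0 and 0, where 9.75% of all tested genes were. Of the 127 genes in these lists, limma-voom called 0, against 0.450% of all genes in that test, and DESeq2 3, against 2.08%. Those 3 were *CREB3L2* and *ATF3*, higher, and *CEBPB*, lower. The edgeR fit with a term for the replicate 3 libraries called 6, against 3.38% of all genes. There *PPP1R15A* and *PPP1R15B* were also higher and *TRIB3* also lower. With replicates 1 and 2 alone, 15 were called higher and 5 lower, where 7.83% and 5.33% of all genes in that fit were. None of these shares was matched for level. Beside those 6, the higher ones were *MBTPS2*, *ERO1A*, *FAF2*, *TRAM1*, *SRP68*, *SRP72*, *ALG2*, *STT3B*, *SEC31A*, *SEC23B* and *LMAN1*, and the lower ones *ATF4*, *KDELR1* and *RETREG2*. Outside the PERK branch, the list medians lay between 0.0029 and 0.06. *CREB3L2*, which encodes a membrane-bound transcription factor related to ATF6, had 66.7, 69.1 and 73.6 CPM after ABS and 52.4, 57.2 and 54.3 CPM in control libraries. All ABS values lay above all control values, and its log2 fold change was 0.35 ± 0.08 (edgeR adjusted p 0.0867). Its adjusted p was 0.0145 with DESeq2, and it passed in 6 of the 14 alternatives, over which the adjusted p lay between 0.00767 and 0.406. *MBTPS2*, the protease that releases ATF6, had 0.21 ± 0.11.

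In the PERK branch the median was -0.14. *ATF4*, the factor made when eIF2alpha is phosphorylated, had 235, 224 and 181 CPM after ABS and 247, 273 and 187 CPM in control libraries. *DDIT3*, which encodes the pro-apoptotic factor CHOP, had 2.62, 3.54 and 4.67 CPM after ABS and 4.38, 4.82 and 4.14 CPM in control libraries. The groups overlapped for both, with log2 fold changes of -0.14 ± 0.13 and -0.30 ± 0.24. *PPP1R15A*, which encodes GADD34, the subunit that directs a phosphatase to eIF2alpha, had 158, 133 and 159 CPM after ABS and 68.7, 80.5 and 130 CPM in control libraries. *ATF3*, a stress-induced transcription factor, had 18.7, 17.4 and 14.5 CPM after ABS and 6.25, 8.51 and 11.3 CPM in control libraries. For *CEBPB*, a transcription factor of inflammation and differentiation, the values were 79.4, 81.1 and 96.3 CPM after ABS and 134, 129 and 102 CPM in control libraries. In these 3 genes the groups did not overlap, control library 3 lay nearest to the ABS libraries, and the edgeR adjusted p was 0.133 for *PPP1R15A*, 0.056 for *ATF3* and 0.0782 for *CEBPB*. Without control library 3 all 3 passed (edgeR adjusted p 5.28e-05, 0.0016 and 0.00151), where 3.10% of genes in that fit did. The count of members called stayed at 0. Leaving out the control library nearest to ABS widens the difference by construction. Without ABS library 3, *ATF3* and *CEBPB* passed and *PPP1R15A* did not (edgeR adjusted p 0.130). Without any 1 of the other libraries 0 of the 3 passed, and *PPP1R15A* did not pass with DESeq2 (adjusted p 0.341).

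**Figure D5:**
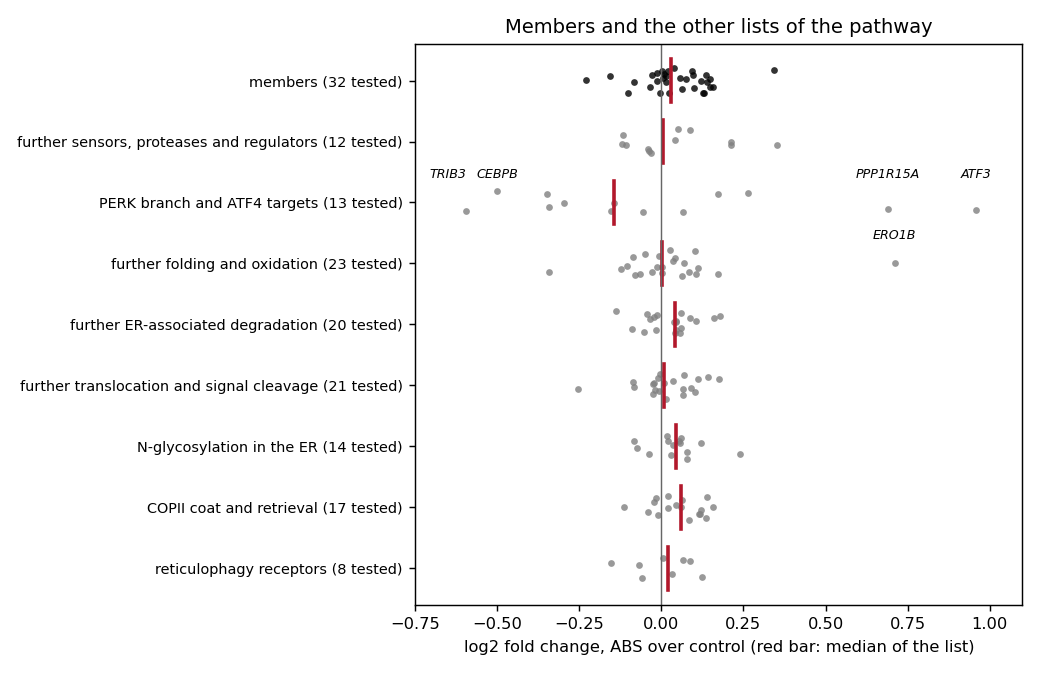
Log2 fold change, ABS over control, of the 32 members (black) and of the tested genes of the 8 other lists (grey), with list medians in red and genes beyond 0.5 named. *ATF3* lies farthest to the right, followed by *ERO1B*, which had under 3 CPM in every library, and *PPP1R15A*, and *TRIB3* and *CEBPB* farthest to the left.

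In the folding and oxidation list the log2 fold changes ran from -0.34 for *TXNDC12* to 0.71 ± 0.38 for *ERO1B*, whose groups overlapped. *ERO1A*, the oxidase that regenerates disulfide isomerases, had a log2 fold change of 0.17 ± 0.08, and *TXNDC12*, an ER thioredoxin, -0.34 ± 0.17. In ERAD, *FAF2* had 0.18 ± 0.09 and *EDEM3* 0.16 ± 0.09. In translocation, *TRAM1* had 0.14 ± 0.08 and *SRP68*, a protein of the signal recognition particle, 0.11 ± 0.08. *ALG2*, a mannosyltransferase of N-glycan assembly, had 0.24 ± 0.09 (unadjusted p 0.0246, edgeR adjusted p 0.397) and *PRKCSH*, a subunit of glucosidase II, -0.08 ± 0.07. *SEC31A*, of the outer COPII coat, had 0.16 ± 0.08 and *KDELR1*, the receptor that returns ER residents, -0.11 ± 0.07. *RETREG2* and *ATL3*, linked to the turnover of ER membrane, had -0.15 ± 0.08 and 0.09 ± 0.07.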

How the data were processed

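The authors deposited 1 table of raw counts, a column for each library and a row for each gene, with names, positions and lengths of the gene models. Per the submitters' processing notes, HISAT2 2.0.5 and featureCounts 1.5.0-p3 were used with GRCh38. Which annotation was used, whether counting used strand and what became of reads mapping to several genes was not given in the sources used here, so reads shared by overlapping genes or copies could be split or lost. All 58735 gene identifiers were found in GENCODE 29, and coordinates are on GRCh38. Genes were kept by filterByExpr (minimum count 10, minimum total 15), which left 13768, with all 32 members among them. TMM factors (trimmed mean of M values) scaled the libraries, and genes were tested with the quasi-likelihood F-test of edgeR 4.0.16 in R 4.3.3, with group as the only term and p adjusted by Benjamini-Hochberg over all tested genes at 0.05. SE is the log2 fold change over the square root of F, and 95% intervals use the t quantile of that fit. Alternatives were DESeq2 1.42.0, limma-voom (limma 3.58.1), other scalings, no filter, fits without single libraries and fits that treat the replicate 3 libraries apart. The procedure was tested on simulated data. The members, the other lists and the alternatives were chosen with earlier results of these data known. Values of every library are given for the 12 members with the smallest p, for *HSPA5*, *XBP1*, *EIF2AK3* and *DNAJB9*, and for *TXNDC5*, which was added after its values were seen. In each other list the 2 genes with the smallest p are named, with *DDIT3*, *ATF4* and *PPP1R15A*. Other genes of these lists were added after their values were seen, most of them because an alternative called them. Promoter windows are those of RefSeq (GRCh38.p14). Per the series' design text, the 3 libraries of a group are independent biological replicates.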

Additional observations from a re-analysis of the deposited data

How the results depend on the processing

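Over the 14 alternatives, 630 values of named genes kept direction and side of the threshold, 47 came to pass it and 37 changed sign, each of the 37 in a member that had not passed. The number of genes called was 60. Scaling by library size only gave 35, testing without the filter 409, DESeq2 264, a term for the replicate 3 libraries 465 and replicates 1 and 2 alone 1813. Fits that left out 1 library gave 13, 18 and 273 for ABS replicates 1, 2 and 3, and 17, 12 and 438 for control replicates 1, 2 and 3. The number of members called was 1, *SEC24D*, with DESeq2 and with that term, 9 in replicates 1 and 2, and 0 under the other alternatives except the block. The median of the members stayed between 0.02 and 0.07. With the replicate number as a block, 350 genes (2.54%) and 1 member, *SEC24D*, were called. The deviations of libraries with the same number correlated across genes at 0.0425, 0.0333 and 0.167, the last being the highest of all pairings. The replicate 3 libraries correlated with other-numbered libraries of the other group at -0.125 to -0.0581. Deviations from a group mean cancel out within the group for each gene, so these correlations depend on each other. ABS replicate 2 correlated best with control replicate 1 (0.0934). The labels name no pairing, so the numbers were not taken to pair the libraries. The smaller fits hold fewer libraries, and the cause of the moves between alternatives was not tested. Signs changed with library size only for *PDIA3* (-0.0088), *PDIA4* (-0.0055) and *PDIA6* (-0.0039), with limma-voom for *SEC61B* (0.00072), and in replicates 1 and 2 for *ATF6B* (-0.0097), *DNAJB11* (-0.0015), *PDIA3* (-0.065), *PDIA5* (0.0023), *EDEM1* (0.0019) and *SSR1* (0.015). When single libraries were left out, the range crossed 0 for *ATF6B* (-0.044 to 0.090), *CALR* (-0.054 to 0.0013), *EDEM1* (-0.096 to 0.014), *HYOU1* (-0.0027 to 0.13), *PDIA3* (-0.032 to 0.022), *PDIA4* (-0.018 to 0.033), *PDIA5* (-0.071 to 0.016), *PDIA6* (-0.049 to 0.085), *SDF2L1* (-0.044 to 0.060), *SEC61A1* (-0.026 to 0.074), *SEC61B* (-0.054 to 0.078), *SSR1* (-0.047 to 0.043), *TXNDC5* (-0.014 to 0.38) and *XBP1* (-0.042 to 0.12).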

Other observations

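Within the PERK branch list of 13 tested genes, 3 ATF4 targets had a control library 3 well below control libraries 1 and 2. These 3 were named after their values were seen. In the same list, control library 3 was also the lowest control library for *ATF4*, *DDIT3* and *CEBPB*. It was the highest control library for *ATF3*, *PPP1R15A* and *PPP1R15B*. *TRIB3*, a pseudokinase gene induced by ATF4 and CHOP, had 97.8, 103 and 87.1 CPM in ABS libraries 1, 2 and 3, against 172, 175 and 86.4 CPM in control libraries 1, 2 and 3. *CHAC1*, which encodes an enzyme that degrades glutathione, had 5.85, 5.95 and 4.40 CPM after ABS and 6.93, 9.01 and 4.63 CPM in control libraries. *SESN2*, which encodes a leucine sensor, had 10.45, 12.02 and 10.16 CPM after ABS and 15.005, 14.79 and 6.58 CPM in control libraries. For all 3 genes the groups overlapped. Control library 3 lay within the ABS range for *CHAC1*, just below it for *TRIB3*, and well below it for *SESN2*. *TRIB3* was called lower with the term for the replicate 3 libraries and in replicates 1 and 2. It was also called lower without control library 3, with the replicate number as a block and without the filter. The edgeR adjusted p with all 6 libraries was 0.289 for *TRIB3*, 0.707 for *CHAC1* and 0.908 for *SESN2*. *PPP1R15B*, the constitutive counterpart of *PPP1R15A*, had 192, 186 and 161 CPM after ABS and 145, 146 and 158 CPM in control libraries. Its groups did not overlap, and its edgeR adjusted p was 0.228. It was called higher with the term for the replicate 3 libraries, in replicates 1 and 2, and without ABS library 3.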
